A study of Mus musculus with 6 samples.

Results

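Cholesterol synthesis was read in the bulk RNA of the dorsal hippocampus from 7 genes of the sterol pathway: the enzyme genes Hmgcs1, Idi1, Fdft1, Sqle and Cyp51, and Insig1 and Srebf2, whose products control them. They were taken as a list of named pathway genes, with earlier results of these data known. They are 7 of the 55401 genes in the files, and all 7 passed the filter on low counts, which left 19969 genes for the tests. None of them encodes an uptake receptor, so genes of cholesterol uptake were taken from a separate list. The animals of both groups were WT mice aged 4 months, littermates from the Ts65Dn colony on the B6EiC3 background, and those sequenced were described as males. Each received 50 µg per hemisphere of an antisense oligonucleotide (ASO), infused stereotactically on both sides and aimed at the dorsal dentate gyrus. The 3 Snhg11-ASO mice received an ASO against the long noncoding RNA Snhg11, which lets RNase H cut that transcript and which the labels give as Snhg11 KD, and the 3 Control-ASO mice received a scrambled ASO of the same length. The dorsal part of the hippocampus was taken 3 days later. An ASO of this kind is not limited to one cell type, and the tissue holds all hippocampal subregions and not the dentate gyrus alone.

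Cholesterol in the brain is made almost entirely in the brain itself, because lipoproteins of the blood do not cross the blood-brain barrier. Acetyl-CoA is turned through mevalonate into isoprenoid units, these are joined to squalene, and squalene is closed to lanosterol, which later enzymes turn into cholesterol. When membranes of the endoplasmic reticulum are low in sterol, the transcription factor SREBP2 is carried to the Golgi by its escort SCAP, cut free there by proteases and raises the transcription of nearly every gene of this route. When sterol is plentiful, INSIG proteins hold the SCAP-SREBP2 complex back.

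The promoters are shown because SREBP2 acts on these genes through short elements there, usually beside binding sites of NF-Y and Sp1. RefSeq promoters (GRCm38.p6, a window of 300 bases that begins upstream of the start site and ends shortly after it) were at hand for 5 of the 7 genes, namely Hmgcs1, Idi1, Cyp51, Insig1 and Srebf2. In the 3 promoters printed 5′ to 3′ here, capitals mark matches, on either strand, to a sterol element core (TCACNCC), an NF-Y box (CCAAT) and an Sp1 box (GGGCGG). The first is that of Hmgcs1 at chr13:119690101-119690400, the second that of Srebf2 at chr15:82147019-82147318 and the last that of Insig1 at chr5:28071162-28071461, all on the plus strand.
Hmgcs1: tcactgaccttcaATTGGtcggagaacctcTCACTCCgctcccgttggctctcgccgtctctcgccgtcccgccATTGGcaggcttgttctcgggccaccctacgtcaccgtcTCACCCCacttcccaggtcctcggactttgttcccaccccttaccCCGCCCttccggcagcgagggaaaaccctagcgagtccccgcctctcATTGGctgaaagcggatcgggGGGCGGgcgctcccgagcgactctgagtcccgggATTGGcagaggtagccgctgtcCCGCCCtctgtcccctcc
Srebf2: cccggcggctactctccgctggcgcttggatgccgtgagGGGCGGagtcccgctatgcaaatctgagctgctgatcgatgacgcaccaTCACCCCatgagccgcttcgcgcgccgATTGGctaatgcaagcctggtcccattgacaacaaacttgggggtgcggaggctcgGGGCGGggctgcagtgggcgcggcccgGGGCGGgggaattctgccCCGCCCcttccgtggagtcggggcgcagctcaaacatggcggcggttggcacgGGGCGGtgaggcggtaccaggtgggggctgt
Insig1: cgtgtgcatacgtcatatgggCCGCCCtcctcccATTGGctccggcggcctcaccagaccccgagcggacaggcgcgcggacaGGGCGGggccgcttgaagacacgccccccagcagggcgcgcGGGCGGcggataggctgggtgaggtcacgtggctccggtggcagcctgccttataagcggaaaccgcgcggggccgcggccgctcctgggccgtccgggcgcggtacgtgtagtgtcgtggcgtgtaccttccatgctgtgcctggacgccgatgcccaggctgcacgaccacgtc
The sterol element core was found in 2 of the 5 promoters. Hmgcs1 held it 220 and 137 bases before the start site, and Srebf2 held it 162 bases before. Of all 32851 RefSeq promoters of the same length, 15.6% held these letters. The NF-Y box was present in 5 of 5 promoters, against 37.4% of all promoters, and the Sp1 box in 5 of 5, against 35.7%. No match overlapped another in these 5 windows. G and C made up 65.7% of the promoter of Hmgcs1, 68.7% of Srebf2, 71.7% of Insig1, 64.7% of Cyp51 and 52.3% of Idi1. A match is only a string of letters, and binding was not measured in these samples. Other forms of the sterol element were not searched for, so a promoter without a match is not shown to lack one.

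Between 28951250 and 43997537 read pairs per sample were counted on genes, and the Snhg11-ASO libraries were the deeper ones. Values are given in CPM, that is, read pairs scaled to the size of the library and its TMM factor. The controls had 551, 436 and 209 CPM of Snhg11 itself, and the Snhg11-ASO samples 139, 65.4 and 69.4 CPM, so all 3 treated samples lay below all controls (log2 fold change -2.13, SE 0.43, with a Benjamini-Hochberg adjusted p of 0.395 in the edgeR quasi-likelihood F test and of 6.2e-05 in DESeq2). Snhg11-ASO replicate 1 stood apart from the rest, with a Spearman rho across genes of 0.955 to 0.960 with the others, which reached 0.979 to 0.991 among themselves. Of all genes tested, 32.5% had their lowest value of the 6 samples in Snhg11-ASO replicate 1 and 33.3% their highest. That sample was the lowest of the 6 for 9 of 10 oligodendrocyte markers, whose summed level was 1058 CPM there, 2356 and 2930 CPM in the other Snhg11-ASO samples and 1197 to 2299 CPM in the controls. Its astrocyte markers (8 genes) summed to 4077 CPM, against 4703 to 6802 CPM in the other 5 samples, and its microglia markers (9 genes) to 238.6 CPM, against 324.3 to 735.3 CPM. Between the groups, 10 of 10 oligodendrocyte markers had a positive log2 fold change, with a median of 0.27, and of 0.64 without that sample. Astrocyte markers had 6 lower and 2 higher, and microglia markers 4 lower and 5 higher. The 8 hippocampal neuron markers were all detected, with sums of 1910 to 2162 CPM over the 6 samples, and no marker of any list was at 0 in all samples. The 8 choroid plexus markers summed to 208.2, 29.3 and 145.4 CPM in the controls and to 133.9, 46.5 and 36.7 CPM in the Snhg11-ASO samples, and 8 of 8 had a negative log2 fold change. The part of these markers in the results was not tested. Estimates without Snhg11-ASO replicate 1 are given beside those that it moved most. In bulk RNA, fewer cells of a type and less RNA per cell cannot be told apart.

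None of the 7 genes differed between the groups beyond the spread of the samples. No gene of the 7 had an adjusted p under 0.05, and over all genes tested the share called by edgeR was 0% (0 of 19969). The values of the groups overlapped for every one of the 7 genes, while 7.7% of all genes tested lay wholly lower and 7.73% wholly higher in the Snhg11-ASO samples. At an unadjusted p under 0.05, 0 of the 7 were lower or higher, against 4.43% (885 genes) lower and 3.68% (734 genes) higher among all genes. DESeq2 called 1.29% of all genes (258) and 0 of the 7. The median log2 fold change of the 7 was -0.09, with 6 genes on the lower side and 1 on the higher, and over all genes it was 0.01, with 9653 lower and 10316 higher. Without Snhg11-ASO replicate 1 the median of the 7 was -0.02, with 5 lower and 2 higher. The median size of the change, sign left aside, was 0.09 for the 7 genes and 0.18 for all genes, which were not matched to the 7 in level.

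Hmgcs1 (ENSMUSG00000093930) encodes the cytosolic HMG-CoA synthase, which makes the substrate from which mevalonate is formed. It lies on the plus strand of chromosome 13, from 119690379 to 119708260 of GRCm38. Control-ASO replicates 1, 2 and 3 had 169.7, 160.8 and 196 CPM of it, and the Snhg11-ASO samples, in the same order of numbers, 113, 164.7 and 200.1 CPM. The lowest and the highest sample of all 6 were both Snhg11-ASO samples. The means were 175.5 ± 18.3 and 159.3 ± 43.8 CPM (SD, n = 3 each), and the log2 fold change was -0.14 with a 95% interval from -0.62 to 0.34 (Benjamini-Hochberg adjusted p = 0.876, edgeR quasi-likelihood F test). The interval corresponds to a fold of 0.649 to 1.27, so a change within these bounds is not excluded by these samples. Replicate 1 of the Snhg11-ASO group was 36.6% below the mean of the other 5 samples, which ranged from 160.8 to 200.1 CPM. Without it the log2 fold change turned to 0.06 (adjusted p = 0.909, same test).

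Idi1 (ENSMUSG00000058258) encodes the isomerase that interconverts the isoprenoid units from which squalene is built. It spans 8885501 to 8892451 on the plus strand of chromosome 13. This was the most thinly counted of the 7 genes, with 110, 139 and 153 read pairs in the controls and 132, 166 and 183 in the Snhg11-ASO samples. Scaled to depth these were 3.74, 4.13 and 4.54 CPM against 3.46, 3.97 and 4.19 CPM. The values lay close together in both groups, and the lowest was again that of Snhg11-ASO replicate 1. The log2 fold change was -0.09 with a 95% interval from -0.54 to 0.35 (Benjamini-Hochberg adjusted p = 0.910, edgeR quasi-likelihood F test), and -0.02 without that sample. Between same-numbered samples the log2 difference was negative in 3 of 3 pairs, at -0.11, -0.06 and -0.11, and with the replicate block the adjusted p of Idi1 in edgeR was 0.887. The count is uncertain in level, since read pairs that map to several places were not counted. Of the 50-base windows of the longest Idi1 transcript, 30.5% also occur, on either strand, in other annotated transcripts (Gm13502, Gm35570, Gm48574, Gm7654 and Gm8911). Gm48574 overlaps Idi1 on the opposite strand, and pairs within that overlap are told apart by strand.

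Fdft1 (ENSMUSG00000021273) encodes squalene synthase, the first enzyme committed to sterols. It lies on the minus strand of chromosome 14, from 63145150 to 63179578. The controls had 37.6, 30.3 and 41.9 CPM and the Snhg11-ASO samples 33.2, 32.7 and 36.4 CPM. All 3 Snhg11-ASO values fell inside the range of the controls, which also held both the lowest and the highest sample. The log2 fold change was -0.10, with a 95% interval from -0.43 to 0.23 (Benjamini-Hochberg adjusted p = 0.866, edgeR quasi-likelihood F test). The end of this gene overlaps Ctsb on the opposite strand over 18.3% of its exonic length, and 21.7% of the read pairs within Fdft1 were on the strand of Ctsb. Only the strand of Fdft1 was counted for it. Windows that matched Ctsb or Gm6781 on either strand made up 30.7% of its longest transcript. Pairs within the overlap with Ctsb are told apart by strand. The share due to Gm6781 alone was not separated, so the level of Fdft1 is uncertain to an unknown degree.

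Sqle (ENSMUSG00000022351) encodes squalene epoxidase, a rate-limiting step of the later pathway, and spans 59315077 to 59331192 on the plus strand of chromosome 15. Its levels were 36.9, 32.0 and 40.9 CPM in the controls and 31.5, 32.9 and 38.6 CPM in the Snhg11-ASO samples. Replicate 3 was the highest of its group on both sides, and the groups shared most of their range. The log2 fold change was -0.09, with a 95% interval from -0.41 to 0.22 (Benjamini-Hochberg adjusted p = 0.874, edgeR quasi-likelihood F test), and -0.03 without Snhg11-ASO replicate 1.

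Cyp51 (ENSMUSG00000001467) encodes the lanosterol demethylase and spans 4081145 to 4104746 on the minus strand of chromosome 5. It was at 47.2, 39.4 and 47.0 CPM in the controls and at 40.2, 44.9 and 47.9 CPM in the Snhg11-ASO samples. Of the 7 genes it had the group means closest to each other, 44.5 ± 4.42 and 44.3 ± 3.90 CPM (SD, n = 3 each). The log2 fold change was -0.0068 with a 95% interval from -0.28 to 0.27, a fold of 0.822 to 1.21 (Benjamini-Hochberg adjusted p = 0.991, edgeR quasi-likelihood F test). Without Snhg11-ASO replicate 1 it was 0.06.

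Insig1 and Srebf2 had their highest value in Snhg11-ASO replicate 1, the sample in which Hmgcs1, Idi1 and Sqle were at their lowest. That sample was the highest of the 6 for 4 of the 7 genes on the list of SREBP2 control and the lowest for 1. Among all genes tested it was the highest for 33.3% and the lowest for 32.5%. Insig1 (ENSMUSG00000045294), on the plus strand of chromosome 5 from 28071363 to 28078662, is both a brake on SREBP2 and one of its targets. It was at 40.9, 34.2 and 44.3 CPM in the controls and at 47.2, 35.8 and 42.7 CPM in the Snhg11-ASO samples. The log2 fold change was 0.07 with a 95% interval from -0.27 to 0.42 (Benjamini-Hochberg adjusted p = 0.910, edgeR quasi-likelihood F test), and -0.02 without replicate 1 of the Snhg11-ASO group. Insig1 was the only one of the 7 with a positive estimate over all samples, and the estimate was also below 0, at -0.03, without Control-ASO replicate 2. Srebf2 (ENSMUSG00000022463), which encodes SREBP2, spans 82147181 to 82205379 on the plus strand of chromosome 15. Its levels were 84.1, 78.1 and 73.6 CPM in the controls and 85.5, 70.2 and 69.3 CPM in the Snhg11-ASO samples. The other two Snhg11-ASO samples were the lowest of the 6. The log2 fold change of Srebf2 was -0.07, with a 95% interval from -0.33 to 0.20 (Benjamini-Hochberg adjusted p = 0.889, edgeR quasi-likelihood F test), and -0.17 without replicate 1 of the Snhg11-ASO group (adjusted p = 0.532).

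**Figure D1:**
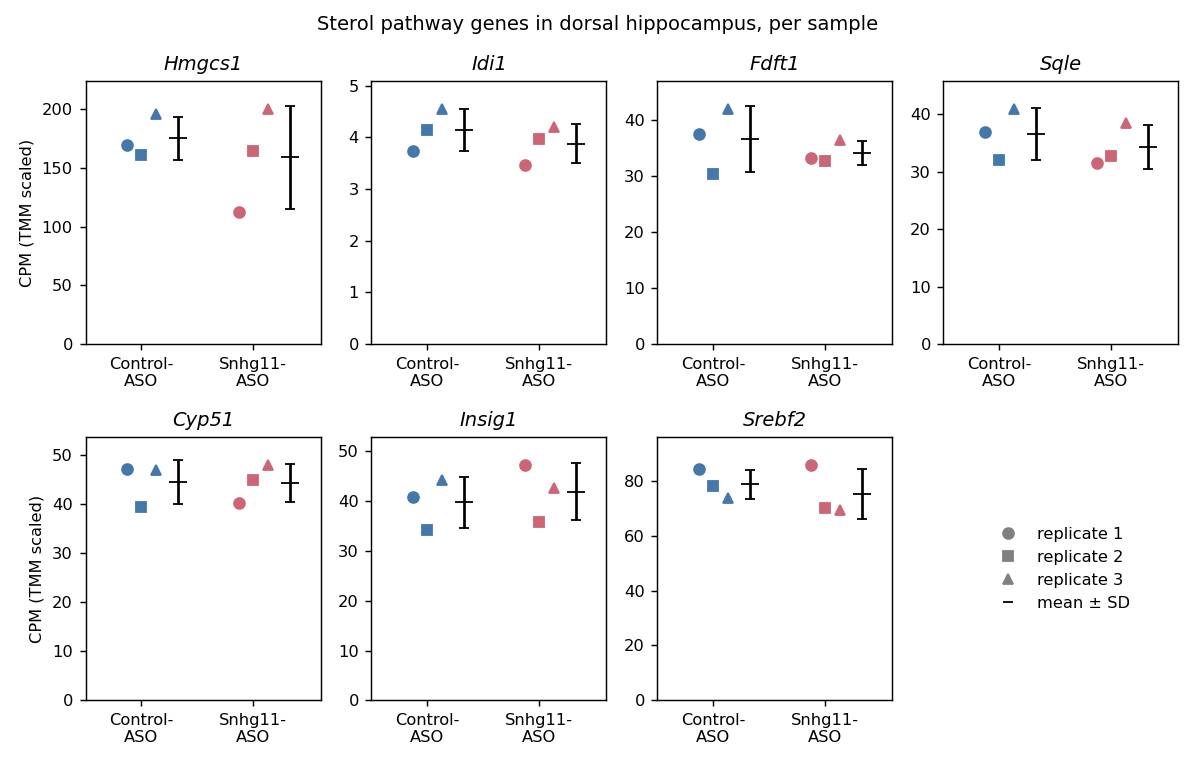
Level of each of the 7 genes in each sample, in CPM (TMM scaled) on linear axes that start at 0. Each point is 1 sample, its shape gives the replicate number, and the black bars are mean ± SD of 3 samples. The groups overlap in all 7 panels, and Hmgcs1 in Snhg11-ASO replicate 1 (113 CPM) is the point farthest from the rest.

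Exact permutation tests of the difference in mean CPM, two-sided over the 3 against 3 samples, gave p = 0.7 for Hmgcs1, 0.5 for Idi1, 0.6 for Fdft1, 0.6 for Sqle, 1 for Cyp51, 0.7 for Insig1 and 0.6 for Srebf2, where the smallest p that 3 samples against 3 allow is 0.1. Of the 7 genes, Cyp51, Srebf2 and Sqle had the narrowest intervals, and for them a fold below 0.754 or above 1.21 lay outside. For Hmgcs1 and Idi1 the intervals were the widest, down to a fold of 0.649 and up to 1.27.

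Over all 6 samples the 7 genes varied less than the median of all genes tested, which was not so for all of them within the controls. The genes tested were not matched to the 7 in level. They include thinly counted ones, such as Gm11732 at a mean of 0.22 CPM, while the lowest of the 7, Idi1, had a mean of 4.01 CPM. The coefficient of variation of CPM over the 6 samples was 8.40% for Cyp51, 9.05% for Srebf2, 9.38% for Idi1, 11.0% for Sqle, 11.8% for Fdft1, 12.3% for Insig1 and 18.7% for Hmgcs1, beside a median of 19.4% over all genes tested. Most of the variation of Hmgcs1 came with 1 sample, since its coefficient was 10.3% without Snhg11-ASO replicate 1, where the median of all genes was 13.6%. Over the 3 controls alone the median of all genes was 12.3%, and Fdft1 (16.0%) and Insig1 (12.9%) lay above it. The highest sample exceeded the lowest by a factor between 1.22 in Cyp51 and 1.77 in Hmgcs1.

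The enzyme genes tended to be high or low in the same samples, whichever the group. On the log2 scale and set against the mean of the controls, the median of the 5 enzyme genes was 0.02, -0.17 and 0.16 in the controls and -0.21, -0.09 and 0.08 in the Snhg11-ASO samples, in the order of their numbers. In replicate 3 of both groups 0 of the 5 enzymes were below the control mean. In Control-ASO replicate 2 and Snhg11-ASO replicate 2 it was 4 of 5, and in Snhg11-ASO replicate 1 it was 5 of 5. The enzyme medians of same-numbered samples were closer to each other in replicates 2 and 3 than those of the controls were among themselves. Insig1 followed the enzymes in 5 samples and stood 0.25 above the control mean in Snhg11-ASO replicate 1, where Srebf2 stood 0.12 above it and Hmgcs1 was 0.63 below. These deviations share the library, its depth and its scaling.

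**Figure D2:**
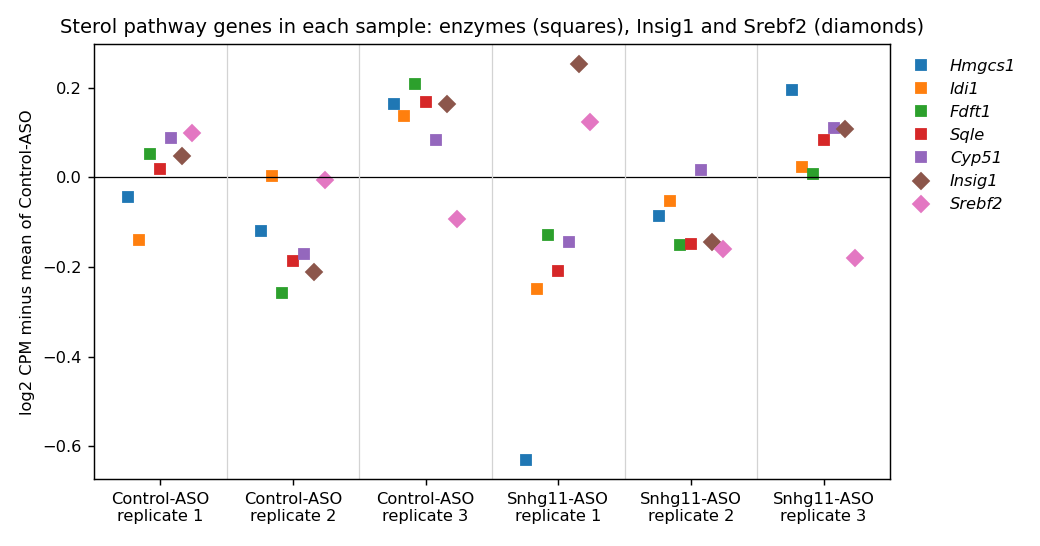
Deviation of each gene in each sample from the mean of the Control-ASO samples, in log2 CPM. Squares are the 5 enzyme genes and diamonds are Insig1 and Srebf2, and each column is 1 sample. All squares lie above 0 in replicate 3 of both groups and all lie below 0 in Snhg11-ASO replicate 1, where both diamonds lie above 0.

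Divided by exonic length (CPM per kilobase, RPKM), Hmgcs1 was the most abundant of the 7, with 36.4 ± 6.81 RPKM (SD over 6 samples) and a range of 24.6 to 43.6. Insig1 was next at 13.2 ± 1.62 RPKM, and its range, up to 15.3, did not reach that of Hmgcs1. Srebf2 (10.7 ± 0.967 RPKM) and Cyp51 (10.1 ± 0.845 RPKM) did not differ beyond their spread, with Srebf2 higher in 3 of 6 samples. Fdft1 was at 8.36 ± 0.984 RPKM and Sqle at 6.39 ± 0.702 RPKM, each with a range that overlapped that of the gene above it. Idi1 was the lowest at 1.14 ± 0.107 RPKM, well under the lowest sample of Sqle (5.68 RPKM). The order of the levels was thus not that of the steps in the pathway, and the levels of Idi1 and Fdft1 are uncertain for the shared windows given above.

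None of the 16 other genes of the synthesis route had an adjusted p under 0.05 in edgeR, though 1 of them had groups without overlap. Of 9 genes of the mevalonate steps, Hmgcs1 and Idi1 included, 8 were on the lower side and 1 on the higher, with a median log2 fold change of -0.09, and 0 had an unadjusted p under 0.05. Without Snhg11-ASO replicate 1, which was the lowest of the 6 samples for 8 of these 9 genes, 3 were lower and 6 higher and the median was 0.02. That sample was the lowest for 32.5% of all genes tested. Mvd, which makes isopentenyl diphosphate, had 9.48, 7.67 and 7.78 CPM in the controls and 5.30, 7.04 and 7.90 CPM in the Snhg11-ASO samples, a log2 fold change of -0.30 with a 95% interval from -0.77 to 0.17, and of -0.15 without that sample. Mvk, the mevalonate kinase, was at 9.14, 10.1 and 9.92 CPM against 6.16, 9.60 and 9.85 CPM. Its log2 fold change of -0.19 was 0.0004 without that sample.

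Of 12 genes from squalene to cholesterol, Fdft1, Sqle and Cyp51 included, 8 were lower and 4 higher, with a median log2 fold change of -0.07 (-0.01 without Snhg11-ASO replicate 1) and 0 at an unadjusted p under 0.05. Ebp, a sterol isomerase, was the only one of the 12 whose groups did not overlap. It had 7.85, 7.76 and 8.88 CPM in the controls and 10.5, 8.93 and 11.2 CPM in the Snhg11-ASO samples, all higher, with a log2 fold change of 0.32 and a 95% interval from -0.04 to 0.68 (Benjamini-Hochberg adjusted p = 0.647, edgeR quasi-likelihood F test). Sc5d, the most abundant of the list per length, had 55.2, 58.3 and 55.4 CPM against 52.5, 54.4 and 66.3 CPM. Over the 16 synthesis genes of both lists outside the 7, 11 were lower and 5 higher, with a median log2 fold change of -0.06, and -0.0023 without Snhg11-ASO replicate 1.

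Among the 7 genes of SREBP2 control, Srebf2 and Insig1 included, 3 were lower and 4 higher, with a median log2 fold change of 0.0083. Without Snhg11-ASO replicate 1 there were 5 lower and 2 higher, and the median turned to -0.02. Mbtps2, a protease that helps to free SREBP2, had 28.0, 25.7 and 30.8 CPM in the controls and 23.9, 24.5 and 22.6 CPM in the Snhg11-ASO samples. The groups did not overlap, but the difference (log2 fold change -0.25, 95% interval from -0.51 to 0.01) did not pass the threshold (Benjamini-Hochberg adjusted p = 0.627, edgeR quasi-likelihood F test). Mbtps1, the other protease, was at 80.4, 80.4 and 76.9 CPM in the controls and at 114.7, 81.8 and 77.6 CPM in the Snhg11-ASO samples, with the one high value in replicate 1. Its log2 fold change of 0.21 was 0.01 without that sample. The escort gene Scap was close to the controls, at 77.7, 68.7 and 64.2 CPM against 79.2, 70.0 and 62.6 CPM.

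Of 10 genes of uptake and intracellular transport, 9 passed the filter, 2 were lower and 7 higher, and 0 had an unadjusted p under 0.05. The median log2 fold change was 0.13, and 0.08 without Snhg11-ASO replicate 1. Scarb1, a lipoprotein receptor, had 19.4, 18.4 and 14.3 CPM in the controls and 26.2, 19.0 and 18.6 CPM in the Snhg11-ASO samples (log2 fold change 0.29, 95% interval from -0.15 to 0.73, and 0.11 without Snhg11-ASO replicate 1). Stard4, a sterol carrier, was at 10.7, 9.36 and 14.7 CPM against 8.60, 8.90 and 10.6 CPM (log2 fold change -0.31, 95% interval from -0.79 to 0.17). The groups overlapped for both genes. Lrp1, a large lipoprotein receptor and the most abundant of the list per length, had 604, 523 and 433 CPM against 777, 467 and 431 CPM, and its estimate went from 0.10 to -0.21 on the log2 scale without Snhg11-ASO replicate 1.

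**Figure D3:**
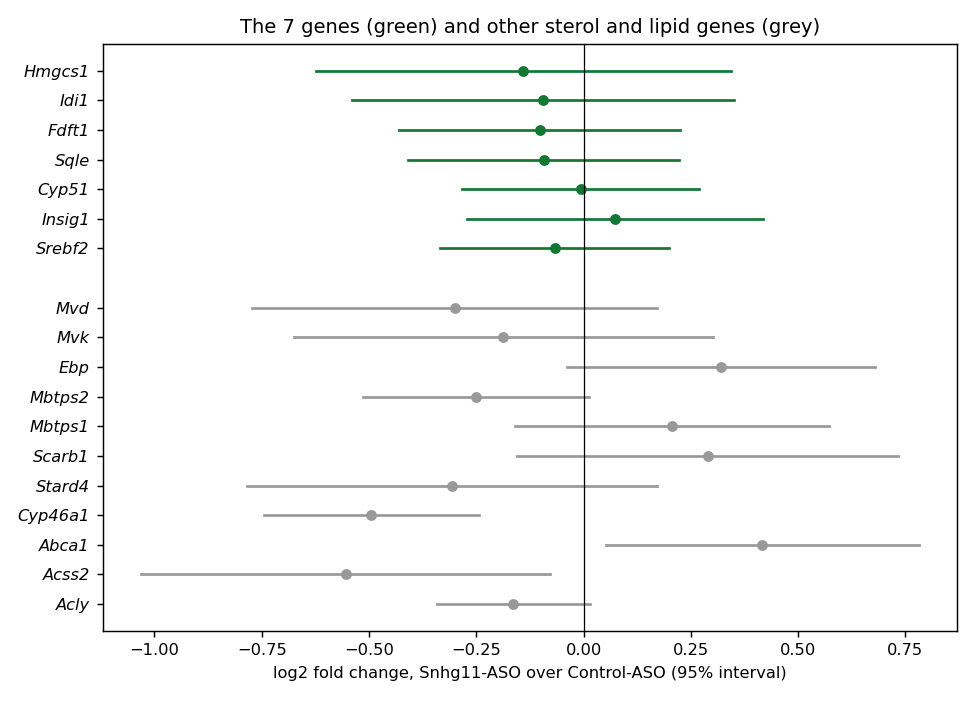
Log2 fold change, Snhg11-ASO over Control-ASO, with its 95% interval from edgeR's quasi-likelihood fit for the 7 genes (green) and for other sterol and lipid genes (grey), 3 samples a group. All 7 green intervals cross 0, and those of Cyp46a1, Abca1 and Acss2 do not, though none of the 3 passed the adjusted threshold.

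The gene with the smallest p of all the pathway lists stood at the other end of cholesterol metabolism. Of 9 genes of efflux, esterification and turnover, 4 were lower and 5 higher, with a median log2 fold change of 0.10, and 1 lower and 1 higher gene had an unadjusted p under 0.05. The lower one was Cyp46a1 (ENSMUSG00000021259), the neuronal hydroxylase through which the brain disposes of surplus cholesterol. The controls had 69.0, 55.4 and 61.4 CPM of it and the Snhg11-ASO samples 45.1, 42.2 and 44.5 CPM. All treated samples lay below all controls, the means were 61.9 ± 6.78 and 44.0 ± 1.52 CPM (SD, n = 3 each), and the log2 fold change was -0.50 with a 95% interval from -0.75 to -0.24. In the edgeR quasi-likelihood F test it did not pass (Benjamini-Hochberg adjusted p = 0.418), whereas DESeq2 gave an adjusted p of 0.0160. Its adjusted p ranged from 0.0100 to 0.979 over 22 alternatives, of which 2 called it, both with DESeq2. In DESeq2 on both strands it was not called without Snhg11-ASO replicate 2 (adjusted p = 0.139) or replicate 3 (adjusted p = 0.0817). The change was about as large without Snhg11-ASO replicate 1 (-0.51). The exact permutation test gave p = 0.1, the smallest possible, as it does for every gene whose groups do not overlap. It thus only restates that separation.

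The higher one was Abca1, the transporter that loads cholesterol onto apolipoproteins. It had 101, 147 and 121 CPM in the controls and 182, 146 and 164 CPM in the Snhg11-ASO samples. The lowest treated sample lay within the range of the controls, and the log2 fold change was 0.42 with a 95% interval from 0.05 to 0.78 (Benjamini-Hochberg adjusted p = 0.574, edgeR quasi-likelihood F test). It was called in 0 of 22 alternatives.

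Fatty acid synthesis, which the related SREBP1 factors drive, was read from 11 genes, of which 8 were lower and 3 higher. The median log2 fold change was -0.11, and 0.0018 without Snhg11-ASO replicate 1, the lowest of the 6 samples for 8 of the 11 and for 32.5% of all genes tested. Acss2, which makes acetyl-CoA from acetate, was the only one of the 11 with an unadjusted p under 0.05. Its levels were 42.7, 39.6 and 43.7 CPM in the controls and 26.4, 21.6 and 37.7 CPM in the Snhg11-ASO samples, all lower, with a log2 fold change of -0.55 and a 95% interval from -1.03 to -0.08. The Benjamini-Hochberg adjusted p was 0.567 in the edgeR quasi-likelihood F test, and 1 of 22 alternatives called the gene (DESeq2 on counts of both strands without Snhg11-ASO replicate 3, adjusted p = 0.00144). Of its windows, 8.3% are shared with Acss2os and Ggt7 on the opposite strand, which was not counted for it. Acly, which supplies acetyl-CoA from citrate, had 124.5, 117.6 and 118.9 CPM against 105.2, 110.2 and 106.8 CPM, also without overlap (log2 fold change -0.16, 95% interval from -0.34 to 0.02). Scd2, the most abundant of the 11 per length, had 822, 950 and 870 CPM against 594, 1001 and 1005 CPM.

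**Figure D4:**
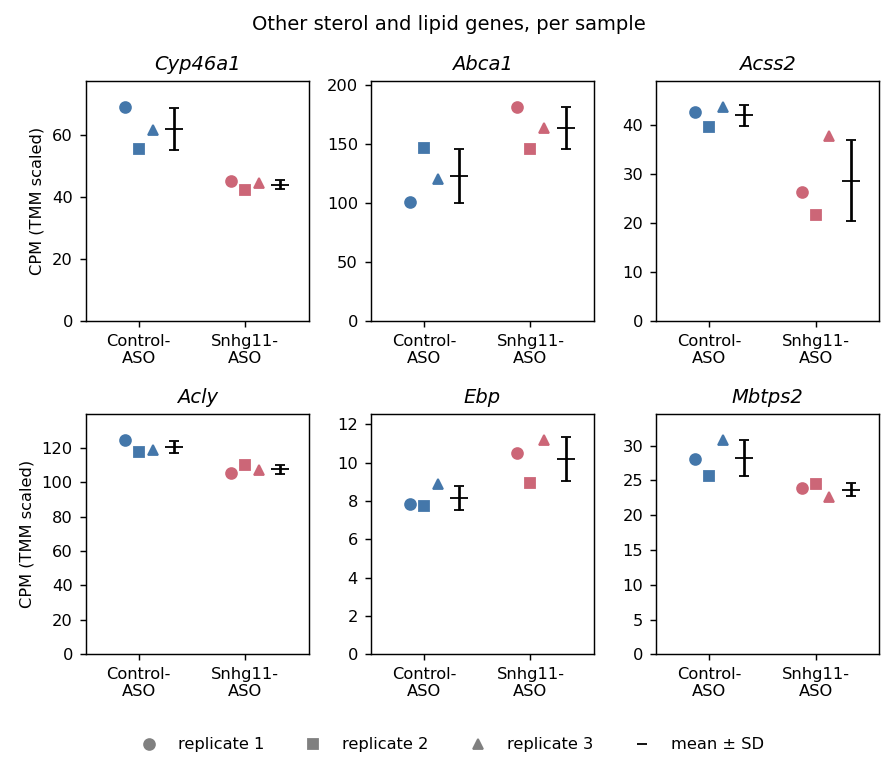
Level of 6 other sterol and lipid genes in each sample, in CPM (TMM scaled) on linear axes that start at 0, drawn as for the 7 genes with mean ± SD of 3 samples. Cyp46a1, Acss2, Acly and Mbtps2 lie wholly lower in the Snhg11-ASO group and Ebp wholly higher, while Abca1 overlaps.

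Over the 6 lists together, 57 of 58 genes were tested, 33 were lower and 24 higher, and the median log2 fold change was -0.02. Without Snhg11-ASO replicate 1 there were 27 lower and 30 higher, with a median of 0.0018. Of these 57 genes, 2 were lower and 1 higher at an unadjusted p under 0.05, and 4 lay wholly lower and 2 wholly higher in the Snhg11-ASO samples. Each of these 4 counts, as a share of the 57, was below the share given above for all genes. Of the 57, edgeR called 0 and DESeq2 called 1, Cyp46a1, which as a share is above the 1.29% of all genes.

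The 8 genes outside the 7 whose log2 CPM followed the mean of the members' standardized levels most closely over the 6 samples were Zfp287, Tle6, Gm48860, Hes6, Tceal9, Mab21l1, Gm11732 and Tns4, with Pearson's r between 0.967 and 0.980. Of the members, Sqle (r = 0.989) and Fdft1 (0.969) lay closest to their own mean, followed by Cyp51 (0.839), Hmgcs1 (0.708), Idi1 (0.563) and Insig1 (0.487), while Srebf2 ran the other way (-0.27). With 6 points and 19969 genes, high values of r are found for some genes in any case, and they are given as a description only.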

How the data were processed

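Per the submitters' processing notes, reads were aligned to mm10 (GRCm38) with STAR 2.5.2a. The authors deposited raw counts of read pairs on each gene, unscaled and unpooled. The methods name Rsubread, whereas the layout is that of STAR, which leaves out pairs that map to several places or to more than 1 gene. The 4 summary lines of each file (43.5% to 51.4% of pairs) were left out.

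Reverse-strand counts (96.2% to 96.8% of stranded pairs) were joined to GENCODE M21, which matched 55141 of 55401 identifiers. They were filtered with filterByExpr (minimum count 10), scaled with TMM and tested between the groups with the quasi-likelihood F test of edgeR 4.0.16 in R 4.3.3, with p-values adjusted by Benjamini-Hochberg over all genes tested and a threshold of 0.05. The 95% intervals come from the same fit (common biological coefficient of variation 0.266), and log2 CPM used a prior count of 2. Alternatives included DESeq2 1.42.0 and limma-voom (limma 3.58.1). The study left out 1 unnamed Snhg11-ASO sample. Here all were kept, and each was left out in turn. The fits were tested on simulated counts with large changes and no outlying sample. That does not tell their power for small changes in these samples.

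The correlation of deviations from the group means was 0.297, 0.179 and 0.103 between samples with the same number, all above 0.1. Control-ASO replicate 2 with Snhg11-ASO replicate 3 gave 0.188, which is above the 0.179 and 0.103 of same-numbered samples. These values thus do not settle whether the samples were paired by number. The number was used as a possible pairing in the fits with a replicate block. The main fit, its intervals and the permutation tests did not use the number. Labels and methods do not say what it marks. The methods give 3 mice a group. In all 6 samples Ddx3y had 2015 to 3641 counts and Xist 1 to 7.

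The 7 genes, the lists and the tests were chosen with earlier results of these data known. Named were the 7 genes, for each pathway list the genes with an unadjusted p under 0.05 or else the 2 with the smallest p, its most abundant gene per length, and the 8 genes most like the members. Scap was added after its values were seen. Not all genes of the lists are reported by name, although all enter the counts.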

Additional observations from a re-analysis of the deposited data

How the results depend on the processing

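In 22 alternatives (other tools, scalings, filters and strands, offsets for genomic span or GC content, a replicate block and samples left out) 0 of the 7 genes passed the threshold, and their median log2 fold change kept its sign. Leaving out samples gave medians in edgeR from -0.1533, when Snhg11-ASO replicate 3 was dropped, to -0.0094, when Control-ASO replicate 3 was, and of -0.0159, -0.0380 and -0.1631 in DESeq2 on both strands without Snhg11-ASO replicates 1, 2 and 3. Over all genes, edgeR called 0 and DESeq2 258. A setting that called 0 of all genes, as limma-voom did, could not have called any of the 7. Most of the alternatives were of this kind, and Snhg11 itself passed in 4 of 22, all with DESeq2. With samples left out, edgeR called 0 to 2 genes, 2 without Snhg11-ASO replicate 1. DESeq2 on both strands called 322, 281 and 206 without Snhg11-ASO replicates 1, 2 and 3. The replicate block gave a median of -0.0911 for the 7 genes and changed no call. Of 154 values of the 7 genes, 15 changed sign and 139 did not. Cyp51 turned to 0.0036 with GC offsets, to 0.0049 with GC offsets and the replicate block, and ranged from -0.0875 to 0.1005 with samples left out. The other ranges were -0.3383 to 0.0565 for Hmgcs1, -0.2213 to 0.0024 for Fdft1, -0.0257 to 0.1737 for Insig1 and -0.3033 to 0.0004 for Mvk. In DESeq2 on both strands without Snhg11-ASO replicate 1, Cyp51 was at 0.0709, Hmgcs1 at 0.0740, Insig1 at -0.0105 and Mvk at 0.0055. The cause of these turns was not tested beyond the samples left out. Leaving out replicate 1 of both groups, whose files follow another naming pattern, was chosen after seeing the data. With 3 samples a group, changes of the 7 genes inside the stated intervals are not excluded.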
